A study of Bos indicus with 8 samples.

Results

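The genes described here are those whose symbol in the array platform's annotation is ZNF or ZBTB followed by a number, which are mostly C2H2 zinc finger proteins. The members were chosen by their symbols, although the family itself was proposed with earlier results of these arrays known. The rule gave 402 of the 43794 gene probes and 290 of the 15229 named genes, of which 258 carry ZNF symbols and 32 carry ZBTB symbols. The cells were bovine cumulus cells, which surround and nourish the oocyte, with the species given as Bos indicus. The tested cells were taken from cumulus-oocyte complexes kept for 6 h with 3 mM adenosine, a purine nucleoside that cells sense through surface receptors and take up as a nucleotide precursor. The control cells had the same medium without adenosine, and both groups carried follicle-stimulating hormone (FSH) at 0.5 µg/ml, oestradiol at 1 µg/ml, 10% serum and 0.2 mM pyruvic acid. Complexes came from follicles of 3 to 6 mm of slaughterhouse ovaries, so each culture also held oocytes, and each RNA pool is labelled as 10 per pool. Each of the 4 adenosine pools shared 2 two-colour arrays with the control pool of its number, once in each dye orientation, which made 4 pool pairs on 8 arrays.

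C2H2 zinc finger proteins form the largest family of DNA-binding proteins in mammals, and each finger is a short loop held by a zinc ion that contacts a few bases. Many ZNF proteins carry a KRAB domain, which recruits TRIM28 (KAP1) and the histone methyltransferase SETDB1 to silence chromatin, often at transposable elements. ZBTB proteins carry a BTB domain, through which they pair with each other and recruit co-repressors such as NCOR or the ubiquitin ligase scaffold CUL3. A smaller number of genes with ZNF symbols code for proteins that bind RNA or act in ribosome assembly, splicing or chromosome segregation. In cumulus cells FSH starts the programme of cumulus expansion, and purines such as adenosine are known to help keep the oocyte in meiotic arrest.

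Probes for 215 of the 290 genes passed the detection filter, which asked that a probe be brighter than the negative control spots in 3 or more pools of a group. The remaining 75 genes were too dim, and 17 of them had no value above detection on any array. Among the genes measured, 189 were ZNF and 26 were ZBTB genes, and 137 of them were above detection in all 8 channel values of both groups. The share measured was 74.1%, against 80.9% of all named genes. Genes that were not measured include ZBTB16 (PLZF), ZBTB7A, ZBTB40, ZNF274 and ZNF423, and nothing is said of their response. The RNA of control pool 2 stood apart in oocyte transcripts. The summed linear level of 16 oocyte markers was 1516, 1588, 1565 and 1586 in the adenosine pools and 1517, 2912, 1535 and 1585 in the control pools. BTG4, FIGLA and ZP4 made up the excess, with log2 levels of 9.59, 8.90 and 8.45 in control pool 2 and at most 6.38, 6.75 and 6.37 in the other control pools.

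With adenosine, 87 of the 215 genes fell, 15 rose and 113 did not pass the test, a share of 40.5% lower and 6.98% higher. The background over 12320 named genes was 42.4% called, with 20.8% lower and 21.7% higher. By probe, 117 of the 290 kept probes fell and 18 rose, beside a background of 37.1% of all kept probes, with 18.4% lower and 18.6% higher. Values are log2 ratios of adenosine over control with the SD between the 4 pool pairs, and a gene passed at an adjusted p under 0.05. The median ratio of the 215 genes was −0.14, and that of all named genes was 0.0035. A probe could meet the detection filter through 1 group alone. Of the 215 genes, 6 were above detection in fewer than 4 of 8 adenosine values, and 0 in fewer than 4 of 8 control values. With detection asked in all 4 pools of both groups, 68 of 138 genes fell (49.3%) and 12 rose (8.70%). The background under that filter was 27.4% lower and 29.5% higher among named genes. The family was proposed for description with earlier results of these arrays known, so these counts describe the genes and are not a test of the family. In pooled RNA a loss of cells of 1 kind and less RNA per cell cannot be told apart.

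The falls were spread over a wide range of sizes. Beyond 4-fold lay 7 of the 215 genes, beside 261 of 12320 named genes. A further 19 fell between 2-fold and 4-fold, 35 fell by 0.5 to 1 on the log2 scale, and 26 fell by less. No gene rose beyond 2-fold, and 26 fell beyond it, where the background was 7.65% lower and 3.59% higher among all named genes. The 15 rises included 6 above 0.5 and 9 below it. Pool levels of the groups did not overlap for 86 genes, 73 of them lower with adenosine and 13 higher, against a background of 31% of named genes, 16.8% lower and 14.3% higher. Ratios were below 0 in every pool pair for 109 genes and above 0 in every pool pair for 30, beside a background of 30.1% and 30.7% of named genes. Without pool pair 4 the number of genes that rose dropped to 7 (3.26%), and the number that fell was 61 (28.4%). Calls over all named genes dropped as well, to 12.1% higher and 12.9% lower. Without pool pair 2, whose control pool carried the oocyte transcripts, 75 genes fell (34.9%) and 10 rose (4.65%), with a median of −0.13. Of all named genes 16.8% fell and 18% rose without it. Of the 61 genes followed under every alternative, ZBTB6, ZNF266, ZNF642, ZNF696 and SETDB1 lost their call without that pair. The part of oocyte RNA in the result was not tested further.

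**Figure D1:**
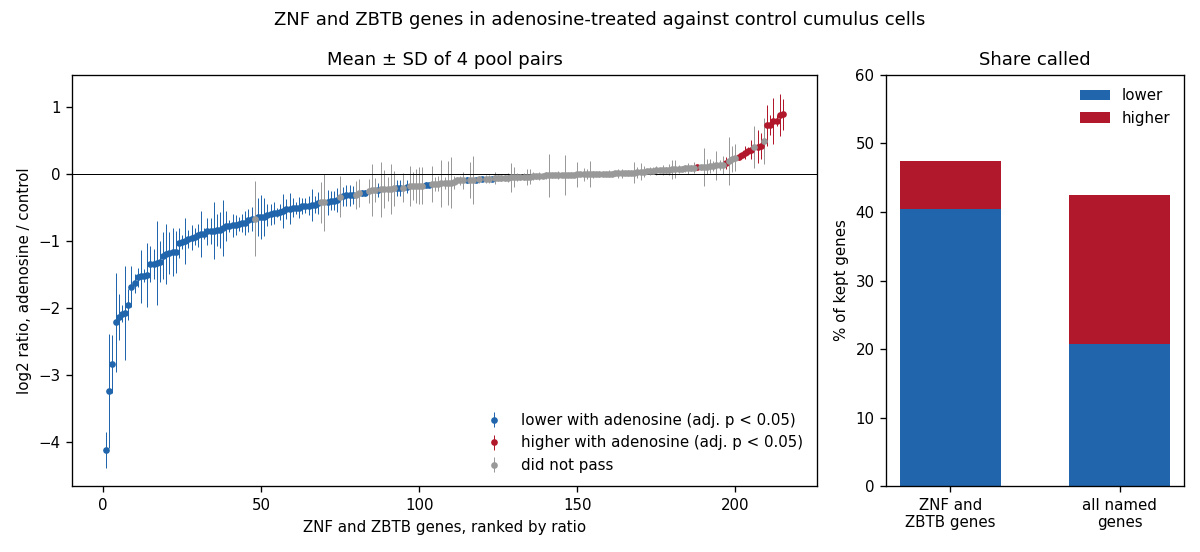
Log2 ratios of adenosine over control for the measured ZNF and ZBTB genes in rank order, with the SD between 4 pool pairs (left), and the percentage of measured genes called lower or higher among these and among all named genes (right). Of 215 genes, 87 were lower, 15 were higher and 113 did not pass, and the lower tail reaches −4.12 while the highest gene lies at 0.89.

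The steepest fall was that of ZNF385B, a member of a small family of RNA-binding zinc finger proteins that is linked in human B cells to p53-dependent apoptosis. Its log2 level was 8.78, 8.74, 9.66 and 9.89 in the adenosine pools, against 13.16, 12.57, 13.96 and 13.87 in the control pools. Every adenosine pool was far below every control pool, and pools 3 and 4 were the higher ones in both groups. The ratio was −4.12 ± 0.26 (SD, n = 4 pool pairs), a level 17.4-fold lower with adenosine (adjusted p = 0.000365). ZNF385B ranked 25 among the falls of all named genes. Its other probes gave −2.32 and −1.61 and also passed, so the direction was shared by all 3 probes and the size was not.

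Other genes with roles at RNA or in translation fell too. ZNF622, the mammalian counterpart of a yeast factor that matures the large ribosomal subunit, had log2 levels of 8.70, 8.05, 8.05 and 7.68 in the adenosine pools and 10.56, 10.04, 9.35 and 9.27 in the control pools. The groups did not overlap, although levels varied by more than 1 log2 unit within each. The ratio was −1.68 ± 0.31 (adjusted p = 0.00211), while a dimmer probe, above detection in 4 of 8 adenosine values, gave −0.05. ZNF830, which takes part in splicing and DNA repair, fell by 1.33 with a wide spread (SD 0.63, adjusted p = 0.0206). Its pool pairs gave −0.80, −2.09, −0.83 and −1.60, and without pool pair 4 the call was lost (adjusted p = 0.0956).

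ZNF207, known as BuGZ for its role in spindle assembly, fell by 0.95 ± 0.19 (adjusted p = 0.00252). ZNF593, whose yeast counterpart travels with the large ribosomal subunit out of the nucleus, fell by 0.51 ± 0.09 (adjusted p = 0.0023). ZNF800, counted in the list below although no role at RNA is given for it here, fell by 0.48 ± 0.15 (adjusted p = 0.00764). ZNF346, which binds double-stranded RNA, went the other way and rose by 0.41 ± 0.20 (adjusted p = 0.0235). Of 16 genes listed for RNA and translation 10 were measured, and 6 fell, 1 rose and 3 did not pass, a share of 60% lower beside the background of 20.8%, with a median of −0.49. The genes that did not pass were ZNF638 at −0.19, ZNF326 at −0.10 and ZNF804A at 0.06.

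Among ZNF genes whose products act in chromatin complexes or as developmental regulators, 28 were listed and 19 measured. The test called 13 of them lower and 1 higher and left 5 uncalled, a share of 68.4% lower beside the same background of 20.8%, with a median of −0.85. ZNF503, a co-repressor of the NET family known from limb and forebrain development, had log2 levels of 8.51, 7.23, 8.32 and 7.21 in the adenosine pools and 10.27, 10.39, 9.83 and 9.66 in the control pools. The groups were apart by more than 1 log2 unit, and adenosine pools 2 and 4 were the lowest. The ratio was −2.22 ± 0.74 (adjusted p = 0.00827), which was 0.0516 without pool pair 4.

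ZNF711, a relative of ZFX that binds CpG-rich promoters, had log2 levels of 6.80, 6.73, 7.28 and 6.88 with adenosine, against 8.59, 9.09, 9.18 and 9.38 in controls. No pool overlapped, and the ratio was −2.14 ± 0.34 (adjusted p = 0.0016). Its 3 probes gave −2.14, −2.08 and −1.56, and all passed. ZNF462, a very large protein needed for neural and craniofacial development, had log2 levels of 9.69, 10.34, 9.68 and 9.67 with adenosine and 11.32, 12.49, 11.73 and 11.68 in controls. Pool 2 was the highest in both groups, and the groups did not overlap. The ratio of −1.96 ± 0.23 (adjusted p = 0.000937) was matched by the other 2 probes of ZNF462, at −1.96 and −1.88.

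The paralogues ZNF148 (ZBP-89) and ZNF281 (ZBP-99), which bind GC-rich promoter elements, both fell. ZNF148 had log2 levels of 8.72, 8.16, 8.97 and 8.48 with adenosine, against 9.63, 9.85, 9.97 and 9.76 in controls. ZNF281 had 8.67, 8.83, 9.09 and 9.10 with adenosine, against 10.16, 9.56, 10.52 and 10.12 in controls. Neither gene's groups overlapped. The ratios were −1.22 ± 0.35 for ZNF148 (adjusted p = 0.00557) and −1.17 ± 0.36 for ZNF281 (adjusted p = 0.0067), and the second probe of ZNF281 gave −3.30. Of the 3 kept probes of ZNF148, 2 passed as lower, and the 3 ratios lay between −1.22 and −0.10.

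ZNF131, a zinc finger protein that carries a BTB domain despite its ZNF symbol, fell by 1.20 ± 0.45 (adjusted p = 0.0109, and 0.061 without pool pair 4). ZNF644, a partner of the histone methyltransferases G9a and GLP, fell by 1.17 ± 0.31 (adjusted p = 0.00488). The 3 kept probes of ZNF644 all passed as lower, but their ratios ranged from −1.17 to −0.17. Smaller falls were those of ZNF395 at −0.94, ZNF451, a SUMO ligase, at −0.92, ZNF592 at −0.85, ZNF24 at −0.84 and ZNF263 at −0.48. ZNF217, an oncogene in human breast cancer that works with CtBP co-repressors, was not well above background in any of 8 adenosine values and was above it in all 8 control values. Its measured level was 1.48-fold lower with adenosine (mean log2 level 6.03 with adenosine and 6.60 in controls, adjusted p = 0.00337). A bound that takes, on each array, the higher of the lowest detected signal and the dim probe's own gave the same value. Here that was the probe's own signal, so 1.48-fold is the fold of the means and not a lower limit.

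Further genes fell beyond 2-fold outside these roles. ZNF664 varied little between pools, with log2 levels of 6.78, 7.08, 6.75 and 6.76 with adenosine and 8.84 to 9.02 in controls. The 2 groups were far apart and the pools within a group nearly alike. Its ratio was −2.09 ± 0.13 (adjusted p = 0.000369). ZNF828, now called CHAMP1, which aligns chromosomes on the spindle, fell by 1.19 ± 0.32 (adjusted p = 0.00477). ZNF292, a tumour suppressor in human cancers, fell by 1.35 ± 0.26 (adjusted p = 0.00238).

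Several of the falling genes are known in humans as KRAB zinc finger genes. ZNF197, whose human product binds the VHL protein, had log2 levels of 7.35, 7.22, 7.66 and 7.61 with adenosine and 8.83, 9.03, 9.32 and 9.18 in controls. ZNF331, imprinted in humans, had 7.22, 7.48, 7.21 and 7.40 with adenosine and 8.88, 8.88, 8.89 and 8.84 in controls. ZNF304 had 7.34, 7.56, 7.41 and 7.44 with adenosine and 8.78, 9.19, 8.98 and 8.89 in controls. In all 3 genes the groups were separated by more than 1 log2 unit, and the spread within a group was small. The ratios were −1.63 ± 0.14 for ZNF197 (adjusted p = 0.000602), −1.54 ± 0.14 for ZNF331 (adjusted p = 0.000658) and −1.52 ± 0.09 for ZNF304 (adjusted p = 0.000402).

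ZNF189 fell by 1.51 with more spread (SD 0.48, adjusted p = 0.00711), from pairs at −2.20, −1.39, −1.10 and −1.35. Lesser falls of this kind were those of ZNF3 at −1.34, ZNF566 at −1.31, ZNF93 at −1.03 and ZNF773 at −1.02. A dimmer probe of ZNF3 gave 0.07 and did not pass, and that of ZNF566 gave −0.76 and passed. ZNF260 was at −1.01, and the other 4 falls beyond 2-fold were those of BTB genes, described next. Cross-hybridisation between KRAB zinc finger paralogues of similar sequence was not tested, since no probe sequences were used here.

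**Figure D2:**
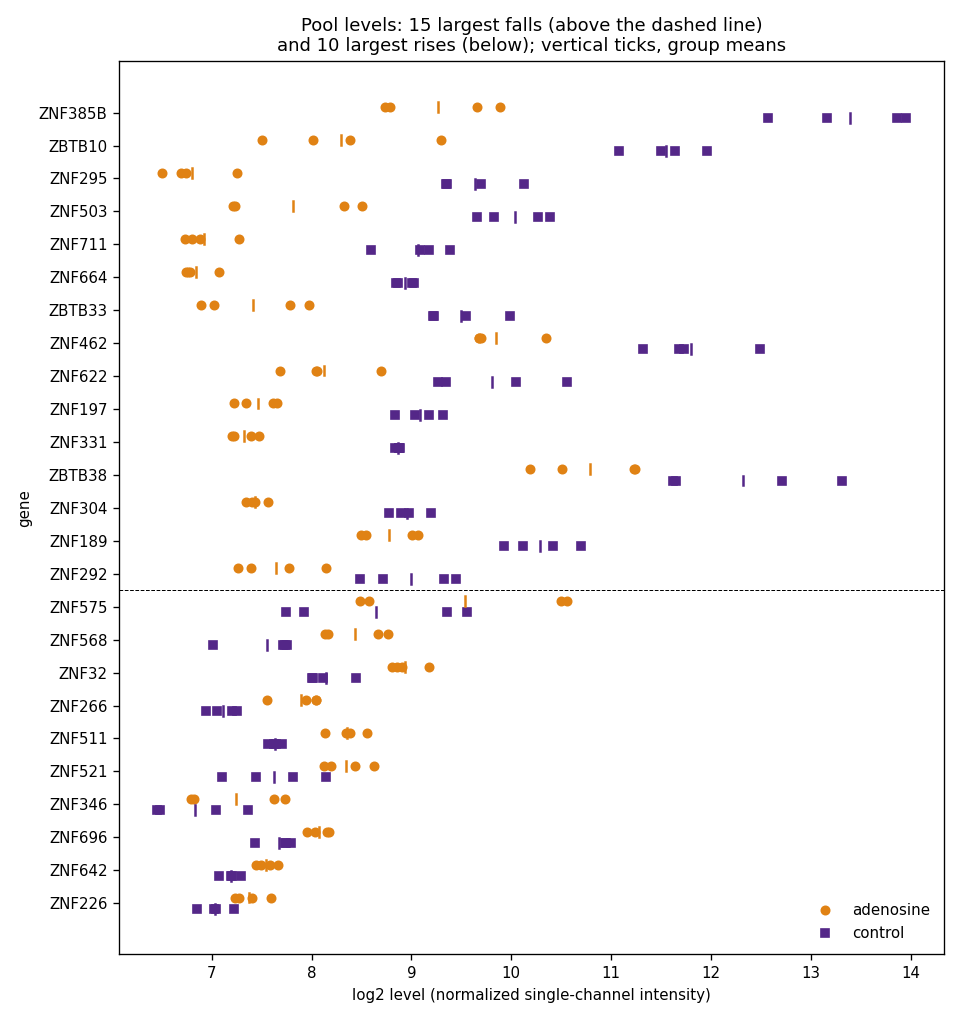
Log2 level in each pool for the genes with the largest falls and rises, with adenosine pools above control pools in each row and 1 point per pool, averaged over its 2 arrays. For ZNF385B the adenosine pools lie between 8.74 and 9.89 and the control pools between 12.57 and 13.96, and for ZNF575 the groups overlap.

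Of the 26 ZBTB genes measured 10 fell, 0 rose and 16 did not pass, so 38.5% were called, beside a background of 42.4% called, 20.8% lower and 21.7% higher. Their median was −0.11. At an unadjusted p under 0.05 in limma 1 ZBTB gene was higher and 11 were lower. That was 12 of 26 genes, beside 6342 of 12320 named genes in either direction. ZBTB10, a repressor that competes with Sp factors at GC-rich promoters, had log2 levels of 8.38, 7.51, 9.29 and 8.01 in the adenosine pools and 11.08, 11.50, 11.64 and 11.96 in the control pools. The groups did not overlap, and adenosine pools 2 and 4 were the lowest. The ratio was −3.25 ± 0.85, a level 9.49-fold lower (adjusted p = 0.00445). A second probe of ZBTB10 fell by 2.30, while another, dim one gave −0.15 and did not pass.

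ZNF295 is the platform's older symbol for ZBTB21, a BTB zinc finger repressor. Its log2 levels were 6.74, 6.51, 7.26 and 6.70 with adenosine and 9.36, 9.35, 9.70 and 10.13 in controls. Every control pool was more than 2 log2 units above every adenosine pool. The ratio was −2.83 ± 0.43 (adjusted p = 0.00145), and another probe gave −1.63.

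Kaiso (ZBTB33), ZBTB38 and ZBTB4 are the BTB proteins known to bind methylated DNA. ZBTB33 had log2 levels of 7.97, 7.03, 7.78 and 6.89 with adenosine and 9.54, 9.99, 9.23 and 9.22 in controls. The groups did not overlap, and adenosine pools 2 and 4 were again the lowest. Its ratio was −2.08 ± 0.71 (adjusted p = 0.0086, and 0.0529 without pool pair 4). A second ZBTB33 probe, above detection in all 8 values of both groups, gave 0.09 and did not pass, so the fall rests on 1 probe.

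ZBTB38 had log2 levels of 10.50, 10.19, 11.23 and 11.24 with adenosine and 11.65, 11.62, 13.31 and 12.71 in controls. No adenosine pool reached a control pool, and pools 3 and 4 were the higher ones in both groups. The ratio was −1.53 ± 0.39 (adjusted p = 0.00435). ZBTB4 did not pass, at −0.05 ± 0.15 (adjusted p = 0.586).

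The other ZBTB genes that fell did so by less than 2-fold. ZBTB9 fell by 0.90 ± 0.34 (adjusted p = 0.0116), and its dimmer probe gave −0.41 and also passed. ZBTB2, a repressor in the p53 pathway, fell by 0.81 ± 0.42 (adjusted p = 0.0266), with a loss of the call without pool pair 1, 3 or 4 at adjusted p values of 0.0604, 0.0915 and 0.0511. A dimmer probe of ZBTB2 gave −0.16 and did not pass. ZBTB5, a repressor of the cell cycle inhibitor p21, fell by 0.51 ± 0.16 (adjusted p = 0.00743). ZBTB20, known from liver and hippocampus development, fell by 0.46 ± 0.13 (adjusted p = 0.00586), and ZBTB44 by 0.43 ± 0.19 (adjusted p = 0.018). The ZBTB20 probe was above detection in 4 of 8 adenosine values, and a dimmer one gave −0.12 and did not pass.

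ZBTB44 lost its call without pool pair 1 or 4, at adjusted p values of 0.0578 and 0.0774. With pools not paired by number, the adjusted p was 0.309 for ZBTB2, 0.344 for ZBTB44 and 0.0777 for ZBTB6. ZBTB26 fell by 0.28 ± 0.04 (adjusted p = 0.0034). It was dim, at a mean log2 level of 6.16 with adenosine and 6.44 in controls. Its probe was above detection in 6 adenosine and 7 control values. ZBTB6 was at −0.08 ± 0.02 with an adjusted p of 0.0499, which lay between 0.0895 and 0.168 without any 1 of the pool pairs. In the Cy5 orientation of adenosine the ratio of ZBTB6 was 0.034. ZBTB6 was dim too, at a mean log2 level of 6.13 with adenosine and 6.21 in controls. Its probe was above detection in only 2 adenosine values and in 7 control values, so it was kept through the control group alone.

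ZBTB8OS, the gene for archease, a tRNA ligase cofactor named only for its place beside ZBTB8, had the highest ratio among ZBTB symbols, at 0.39 ± 0.31 (adjusted p = 0.0837). Of its 3 dimmer probes, 1 passed as higher, at 0.32 ± 0.09 (adjusted p = 0.00681). ZBTB46, a marker of dendritic cells, was at 0.18, ZBTB24, mutated in a human DNA methylation syndrome, at −0.21, and ZBTB49 at −0.34, and none of them passed. Without pool pair 1 the ratio of ZBTB46 was 0.36 (adjusted p = 0.0241) and that of ZBTB24 was −0.30 (adjusted p = 0.0461). ZBTB48, a telomere-binding protein, was at −0.19, but its log2 level was 6.23, 6.18, 7.73 and 7.58 with adenosine and 6.23, 6.21, 8.27 and 7.76 in controls. Pools 3 and 4 thus stood above pools 1 and 2 in both groups, a larger difference than that between the groups. The remaining 10 ZBTB genes that did not pass lay between −0.13 (ZBTB43) and 0.06 (ZBTB7B). The dimmer probe of ZBTB43 passed as lower, at −0.55 ± 0.20 (adjusted p = 0.011).

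**Figure D3:**
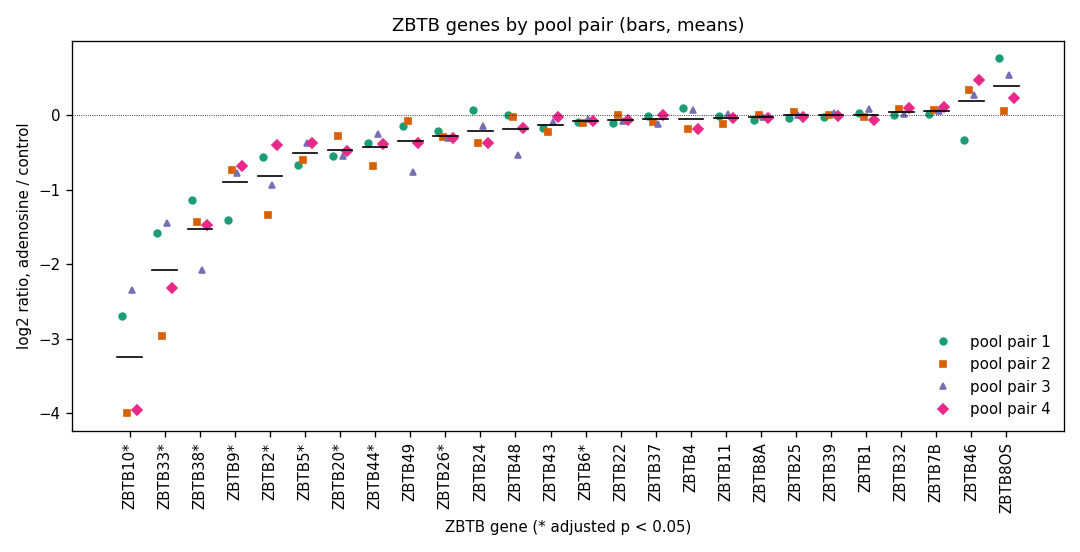
Log2 ratio of adenosine over control in each of the 4 pool pairs for the 26 measured ZBTB genes, with the mean as a horizontal bar and an asterisk on genes that passed. The ratios of ZBTB10 lie between −3.99 and −2.35, and those of most genes that did not pass lie near 0.

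The rises were smaller. ZNF575 had the largest, with log2 levels of 10.50, 10.56, 8.49 and 8.58 with adenosine, against 9.35, 9.56, 7.74 and 7.93 in controls. Pools 1 and 2 were higher than pools 3 and 4 in both groups by more than the groups differed, so the groups overlapped, although each adenosine pool was above the control pool of its own number. The ratio was 0.89 ± 0.23 (adjusted p = 0.00456), and with pools not paired by number the adjusted p was 0.432. ZNF568, a KRAB gene whose mouse counterpart Zfp568 silences a placental Igf2 promoter, rose by 0.88 ± 0.32 (adjusted p = 0.0103, and 0.0591 without pool pair 4), and its second probe was at −0.03.

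ZNF32 had log2 levels of 8.85, 8.81, 8.90 and 9.18 with adenosine and 8.12, 8.01, 8.01 and 8.44 in controls. The groups did not overlap, and pool 4 was the highest in both. Its rise of 0.79 ± 0.08 (adjusted p = 0.000863) had the smallest SD among the 6 rises above 0.5. ZNF511 had 8.35, 8.14, 8.55 and 8.38 with adenosine and 7.70, 7.56, 7.62 and 7.64 in controls, again without overlap, and rose by 0.72 ± 0.15 (adjusted p = 0.00305). The dimmer probe of ZNF511 also passed as higher, at 0.09.

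ZNF521, a regulator of progenitor cells that binds EBF1, rose by 0.72 ± 0.30 (adjusted p = 0.0157) with overlapping groups. Its call was lost without pool pair 1 or 4, with pools unpaired and with arrays centred on the median, at adjusted p values of 0.0612, 0.0778, 0.0651 and 0.0665. ZNF266 rose by 0.78 ± 0.34 (adjusted p = 0.0172), a call lost without pool pair 1, 2 or 3 at adjusted p values of 0.051, 0.055 and 0.0619. The dimmer probe of ZNF266 also passed as higher, at 0.24. ZNF226 rose by 0.34 ± 0.06 (adjusted p = 0.00337). ZNF642, now called ZFP69 and linked to lipid storage in mice, rose by 0.36 ± 0.14 (adjusted p = 0.0142, and from 0.0503 to 0.074 without pool pair 1, 2 or 4). ZNF696 rose by 0.40 ± 0.25 (adjusted p = 0.0455), a call lost without any 1 of the 4 pool pairs, with adjusted p values from 0.05 to 0.129. With arrays centred on the median, ZNF696 was at 0.17 (adjusted p = 0.284). The call of ZNF346 was lost without pool pair 3 or 4, at adjusted p values of 0.0724 and 0.0776. With pools not paired by number, the adjusted p was 0.427 for ZNF346 and 0.0523 for ZNF226.

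Several probes of a gene gave a second reading for 54 genes. All kept probes fell in 16 of these genes and all rose in 2, some but not all passed in 21, none passed in 15, and 0 genes had probes called in opposite directions. The same counts were not made for all named genes, so they have no background beside them. The median gap between the highest and the lowest probe of a gene was 0.37 log2 units, and the widest was 3.10 in ZBTB10. The probes of ZNF462 lay within 0.076 log2 units, while those of ZNF711, all called lower, spanned 0.58, and ZBTB33, ZNF622 and ZBTB10 each had a probe that did not pass. With all kept probes of a gene averaged, 91 genes fell and 15 rose, beside 21.2% lower and 21.65% higher among all named genes. The averaged ratio of ZNF385B was −2.69. How a probe's place in its transcript bears on these gaps was not tested, since probe positions were not used here.

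**Figure D4:**
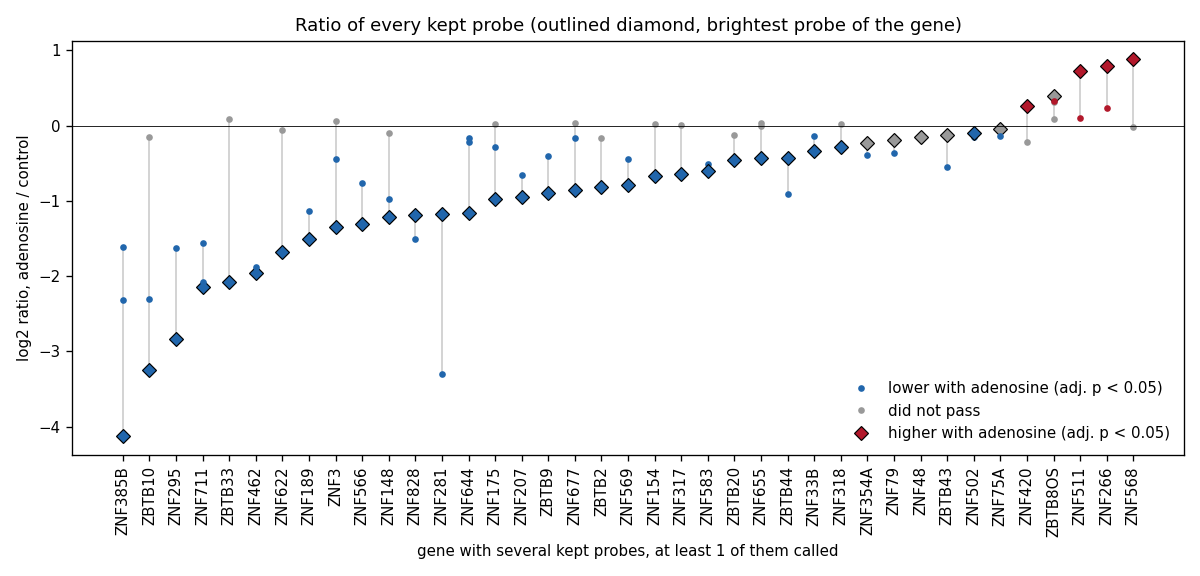
Log2 ratio of each kept probe, 1 column per gene, for genes with several kept probes of which at least 1 passed, with the brightest probe as an outlined diamond. The probes of ZNF462 lie between −1.96 and −1.88, while those of ZBTB10 span 3.10 log2 units.

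The median ratio of the members was below 0 on each of the 8 arrays, between −0.17 and −0.12. Among the 26 genes that fell beyond 2-fold, the ratios of the 2 orientations differed by 0.011 to 0.47 log2 units. Of the 102 genes that passed, 2 had ratios of opposite sign in the 2 orientations, ZBTB6 and ZNF518B, which is 1.96%, beside 3.04% of all named genes that passed. ZNF518B was at 0.08 with adenosine in Cy5 and at −0.51 with adenosine in Cy3. It is named as an exception, after its values were seen. The member median was −0.11 in the Cy5 orientation of adenosine and −0.16 in the Cy3 orientation, and a dye bias of equal size in both orientations cancels in their mean. The orientations were on separate slides, and whether dye bias differed between slides was not tested.

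**Figure D5:**
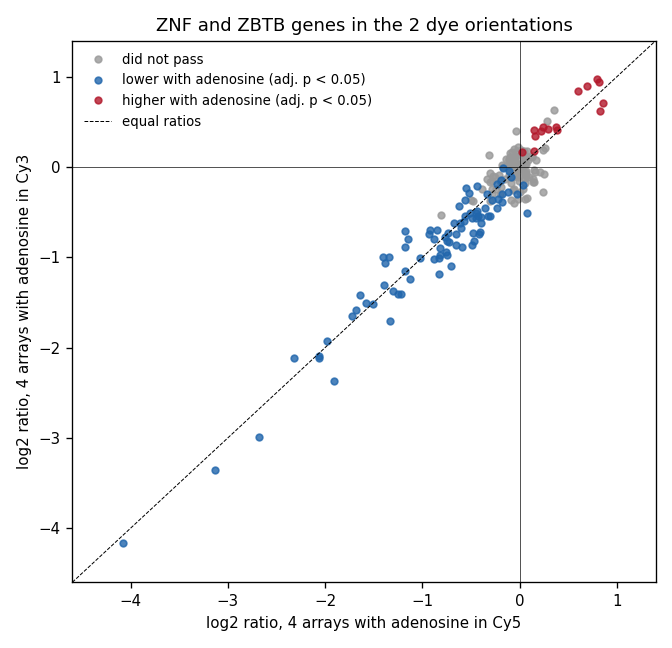
Log2 ratio of adenosine over control, with the arrays that had adenosine in Cy5 on the horizontal axis and those that had it in Cy3 on the vertical axis, 1 point per measured ZNF or ZBTB gene and the mean of 4 arrays on each axis. The genes that fell beyond 2-fold lie close to the diagonal, with gaps of at most 0.47 log2 units.

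The pool pairs differed in the size of the falls. In 28 of the 87 genes that fell, pairs 2 and 4 both lay below pairs 1 and 3, a share of 32.2% beside 32.9% of all named genes that fell. Among falls beyond 2-fold the share was 12 of 26 genes, 46.2%, beside 43.1% of all such genes. ZBTB10 (−3.99 and −3.95 in pairs 2 and 4, −2.69 and −2.35 in pairs 1 and 3), ZNF503, ZBTB33, ZNF711 and ZNF148 show this order. Pair 2 is the pair with oocyte transcripts in its control pool, and pair 4 had no such excess. Both shares were close to the background.

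Many ZNF genes lie in clusters. In the RefSeq gene table of a Bos indicus assembly (NIAB-ARS_B.indTharparkar), used for names and neighbours alone, 238 of the 290 symbols were found. There, 55 members had another member as the next protein-coding gene, in 31 neighbouring pairs. Both genes were measured in 13 of these pairs, of which 5 had both genes lower, 2 had 1 gene lower, 6 had neither lower and 0 had a fall beside a rise. The pairs lower together were ZNF527 and ZNF569 (−0.32 and −0.78), ZNF569 and ZNF570 (−0.78 and −0.62), ZNF583 and ZNF667 (−0.60 and −0.86), ZNF35 and ZNF502 (−0.76 and −0.10), and ZBTB6 and ZBTB26. In the last of these pairs both genes were dim, and ZBTB6 was above detection in only 2 adenosine values. Of the measured members with a member next to them 15 of 38 fell (39.5%). Of the others found there 53 of 131 fell (40.5%).

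Genes for the partners of KRAB and BTB proteins were called in both directions. Of 35 listed, 29 were measured, and 8 rose (27.6%), 7 fell (24.1%) and 14 did not pass, with a median of −0.05. Both shares were near the background of 21.7% higher and 20.8% lower. TRIM28, the co-repressor that KRAB domains bind, was at 0.26 ± 0.23 and did not pass (adjusted p = 0.105), and without pool pair 1 it was at 0.37 (adjusted p = 0.0186). SETDB1, which methylates histone H3 in the TRIM28 complex, had log2 levels of 8.44, 8.63, 8.29 and 8.34 with adenosine and 7.20, 7.93, 7.88 and 7.66 in controls, without overlap, and rose by 0.75 ± 0.35 (adjusted p = 0.0198). That call was lost without pool pair 2 or 4 (adjusted p = 0.0652 and 0.0823) and with arrays centred on the median (adjusted p = 0.0614).

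RBBP7, a histone chaperone of several deacetylase complexes, rose by 0.84 ± 0.13 (adjusted p = 0.00162). CBX1, a heterochromatin protein, rose by 0.36 ± 0.07 (adjusted p = 0.00314). MPHOSPH8, a subunit of the HUSH silencing complex, fell by 1.07 ± 0.18 (adjusted p = 0.00192). KDM1A, a histone demethylase, fell by 0.96 ± 0.25 (adjusted p = 0.00445, and 0.0786 with pools unpaired). The co-repressor CTBP2 fell by 0.69 ± 0.18 (adjusted p = 0.00508) and MORC3 by 0.56 ± 0.17 (adjusted p = 0.00663).

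C2H2 genes under other names were counted for comparison. Of 106 listed, 63 were measured, and 24 fell (38.1%), 6 rose (9.52%) and 33 did not pass, with a median of −0.10, beside a background of 20.8% lower and 21.7% higher. SNAI2, a repressor of epithelial genes, fell by 3.05 ± 0.76 (adjusted p = 0.00395), and PRDM1, which directs differentiation of plasma cells, was at −2.26 ± 0.03 (adjusted p = 7.45e-05). SP1 and SP3, the factors that ZBTB10 competes with, were at −1.22 ± 0.18 and −0.91 ± 0.27 (adjusted p = 0.00148 and 0.00611). Genes with ZFP, ZSCAN or ZKSCAN symbols gave 4 falls (18.2%), 2 rises (9.09%) and 16 that did not pass among 22 measured, with a median of −0.03, beside the same background. ZFP36L1, which codes for a CCCH protein that promotes decay of messenger RNA, was among the falls at −2.90, and ZFP62 was at −1.94. SNAI2, PRDM1, SP1, SP3, ZFP36L1 and ZFP62 were chosen after their values were seen.

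The labelled cell type was checked against marker genes. Of 21 cumulus and granulosa markers 20 were measured, and their summed linear level was 87020 to 102900 in adenosine pools and 85840 to 98710 in control pools. Of the 20, 6 rose and 5 fell, so that sum joins markers that moved both ways. HAS2 and TNFAIP6, genes of cumulus expansion, were at −4.77 and −3.31, KRT8 was at −1.47 and GATM was at 2.57. Of 24 oocyte markers 16 were measured, with the sums given above, and GDF9, ZAR1 and DDX4 were not above the filter. Of the 16, 1 passed the test, MOS, at 0.09. Of 8 theca markers 6 were measured and 2 rose, with sums of 7168 to 13410 in adenosine pools and 4114 to 9722 in control pools. ACTA2 alone made up most of each sum, with log2 levels of 12.52 to 13.60 with adenosine and 11.64 to 13.08 in controls. It rose by 0.69 and COL1A1 by 0.14, and CYP17A1 and LHCGR were not above the filter. Of 11 blood and vessel markers 8 were measured and 1 fell, with sums of 812 to 1578 in adenosine pools and 848 to 1985 in control pools. The part of other cell types in the zinc finger result was not tested. Among the arrays, 7 had 71.1% to 87.4% of probes above detection, and the array of pair 3 with adenosine in Cy3 had 45.4% in the adenosine channel and 41.3% in the control channel. Without that array 80 members fell (37.2%) and 14 rose (6.51%), beside 19.7% and 20.1% of all named genes.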

How the data were processed

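Per the labels' protocols, cumulus cell RNA was amplified by T7 transcription in a pair of rounds, and a chemical reaction attached Cy3 or Cy5. The deposited scanner files hold mean foreground and median background intensity for each of 45220 spots in both dyes, neither normalized nor background-subtracted, per the file headers. The authors' normalized log2 ratios, deposited as a value table, served as an alternative; against the scanner values they ran as adenosine over control on every array (slopes 0.929 to 1.03), with array medians of 0.00566 to 0.0524. Over 3053 bright probes 7 of the 8 columns correlated best with their own array. The column of pair 1 with adenosine in Cy5 correlated at 0.935 with its own array and at 0.943 with the dye-swapped array of the same pools. After each probe was centred over the arrays, 8 of 8 columns correlated best with their own array (0.702 to 0.877). The scanner software and the authors' normalization are not given in the sources used here. A normalized table of the same ratios with control spots, in 8 columns, was not used.

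Background was corrected with normexp (offset 50), which shrinks ratios of dim probes, and arrays were normalized by loess with control spots at weight 0 (limma 3.58.1, R 4.3.3). All ratios were expressed as adenosine over control, and both arrays of a pool number were averaged. Detection required a foreground more than 2 SD above the mean of 153 negative control spots on both arrays of a pool, in 3 or more of the 4 pools of a group. The 4 pool pairs were tested against 0 (lmFit, eBayes), p-values were adjusted by Benjamini-Hochberg over the 31948 detected probes, and the threshold was 0.05. Each gene is represented by its brightest detected probe. Pool levels are log2 values of single channels, scaled by Aquantile after loess. Whether different animals went into each pool is not said in the labels; p-values therefore cover only variation among the pools, and 4 pool pairs limit the precision.

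Pools with the same number shared arrays, per the labels. Deviations of same-numbered arrays correlated at 0.763 to 0.925 across probes, the best match for 8 of 8 arrays.

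The members, gene lists and naming rule were chosen with earlier results of these data known. The rule names the 15 largest falls and 10 largest rises that passed with the same sign in all 4 pairs, every measured ZBTB gene, genes of the RNA and chromatin lists with a ratio of at least 1 on the log2 scale, TRIM28, SETDB1 and 6 further partners with the smallest adjusted p. Other genes are named as examples of counts or lists, after their values were seen. On simulated data with 200 changed probes of 31948, 75% of changes of 1 log2 unit and 92% of changes of 2 were recovered, with 6 false calls among 173. The simulated noise was independent between probes, and far fewer probes were changed than the 37.1% called in the data. Those rates therefore need not hold for these arrays. A planned description of protein features and printed sequences was not made, since no sequences were used here.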

Additional observations from a re-analysis of the deposited data

Results flagged for a closer look

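In ZBTB9, a BTB zinc finger gene, pool pair 1 stood apart from the other pairs. Its log2 ratio of adenosine over control was −1.41, where the other pairs gave −0.73, −0.78 and −0.68. The gap to the nearest pair was 0.862 of the whole range, above Dixon's 95% critical value for 4 values. The 61 named genes were all examined this way and 1 was picked out, while chance picks out about 1 in 20 such groups. The fall of ZBTB9 was present in all 4 pairs.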

How the results depend on the processing

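No gene of the 87 that fell was called higher under any alternative. Apart from the strict detection filter, which tested fewer genes, 52 were called lower under every alternative. Under the strict filter 66 of the 87 were called lower. The matching count over all named genes was not made, so the 52 has no background beside it. The number that fell ranged from 61 to 97. Over all named genes the share that fell ranged from 12.9% without pool pair 4 to 27.4% with the strict filter. Over all probes 11847 were called, against 7497 with no replicate block (pools unpaired) and 6568 to 9688 with 1 pool pair left out. Member genes called higher numbered 15, and 23 from arrays with adenosine in Cy3 alone, 23 from the authors' ratios, 9 with no replicate block and 7 to 13 with 1 pair left out. Over all named genes the share called higher ranged from 12.1% without pool pair 4 to 29.5% with the strict filter. Member probes called higher numbered 18, with 28 from arrays with adenosine in Cy3 alone, 11 with no replicate block and 9 to 14 with 1 pair left out. The member median of −0.14 was −0.16 without background correction, −0.29 with offset 0, −0.26 with median centring, −0.039 with no detection filter (290 genes), −0.29 with detection asked in all pools of both groups, −0.11 and −0.16 from arrays with adenosine in Cy5 and in Cy3 alone, −0.12 without the dim array of pair 3, and −0.15 to −0.11 with 1 pair left out. The cause of these moves was not tested. Offset 0 and median centring used the same 215 genes as the main setting, while the strict filter left 138. Median centring split the calls over all probes into 7511 lower and 4709 higher, where loess gave 5892 lower and 5955 higher. By gene, it called 97 members lower (45.1%) and 11 higher (5.12%), beside 26.7% lower and 16.0% higher among all named genes. Of 900 values of 61 named genes under alternatives, 842 kept their side of the threshold, 45 lost their call and 12 gained one. Among genes that had a call, 1 value reversed, that of ZBTB6, at 0.034 in the Cy5 orientation of adenosine (adjusted p = 0.401). A change of sign in a gene called under neither setting was counted as kept. An example is ZBTB46, at 0.18 in the main setting and −0.035 in the Cy5 orientation. ZBTB8OS and ZBTB32 passed as higher from arrays with adenosine in Cy3 alone or from the authors' ratios (0.51 to 0.56 and 0.16 to 0.29), and TRIM28 from the authors' ratios (0.49, adjusted p = 0.0278). Signal near background limits the ratios of dim genes.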
